A study of Mus musculus with 32 samples.

Results

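The comparison described here set embryonic stem cells that received an active β-catenin fusion before and throughout 4 days of differentiation (C1MDT) against knockout cells differentiated without it (C1T). The members were chosen by their labels alone, and they are 8 of the 32 libraries of the series, 4 cultures in each group. All cells were the mouse line C1, which has no endogenous β-catenin and carries, by lentiviral delivery, a dox-dependent transactivator under the EF1a promoter and a fusion of a destabilising domain, mCherry and β-catenin S33Y under the TRE3G promoter. The fusion is transcribed when dox is present, and its protein is stable only with TMP. C1T cells were given 10 μM TMP without dox for 48 h, sorted as living DAPI-negative cells and kept in TMP until day 4. C1MDT cells were given 100 ng/mL dox and 10 μM TMP for 48 h, sorted from the middle part of the mCherry range and kept in dox and TMP until day 4. The groups therefore differ in dox, in the sorting gate and in the fusion, and these cannot be told apart here. Differentiation was in serum-free NDiff227 medium on gelatin, per the study's methods, after culture in 2i/L (the labels describe serum with LIF). Where a result turned on them, C1MV (the same sorted fraction, without inducers from day 0 to 4), C1HDT (the highest mCherry fraction with both inducers) and the day 0 groups C1 (knockout) and C1M (middle fraction) are given, each with 4 libraries.

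β-catenin joins cadherins to the cytoskeleton at cell contacts and, in the nucleus, acts with TCF/LEF factors as the effector of canonical Wnt signalling. In its free form it is marked for degradation by a complex of Axin, Apc and kinases, and the S33Y substitution removes one of the phosphorylation sites that this complex uses. In the mouse embryo the epiblast gives rise to ectoderm, mesoderm and definitive endoderm, whereas the primitive endoderm forms the parietal endoderm, which lays down a thick basement membrane, and the visceral endoderm, which takes up and secretes nutrients. Sox17, Gata4, Gata6 and Foxa2 are shared by several of these endoderm types, so that RNA of a mixed culture does not name which type is present. In bulk RNA, more cells of a type and more RNA per cell cannot be told apart either, which holds for every result below.

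RNA was sequenced from the 3′ ends of transcripts (QuantSeq), and 1570743 to 2464144 reads per library were counted on genes in C1T and 1715046 to 3648787 in C1MDT. Levels are given as CPM, read counts on genes scaled to a common library size with TMM factors. They are used to compare one gene between libraries and not one gene with another. FDR is the Benjamini-Hochberg adjusted p of edgeR's quasi-likelihood test over all 15280 tested genes, with a threshold of 0.05, and log2 fold changes are C1MDT minus C1T unless another pair is named. A group in which every library had 3 counts or fewer is treated as at the floor, and a fold against it is a lower bound that covers counting error only. The labels call the 4 libraries of a group biological replicates. Mitochondrially encoded genes took 1.59 to 1.82% of the counts in C1T and 0.533 to 0.819% in C1MDT. Genes of the adult liver were counted in all 32 libraries and were lower in C1MDT, and chromosome 8 genes were higher on the whole; both are described with the genes they touch.

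Ctnnb1, which encodes β-catenin, checks the labels (ENSMUSG00000006932, chromosome 9 from 120929216 to 120960507 of GRCm38, the build of all positions given here). It stood at 8.16, 11.2, 12.4 and 7.18 CPM in C1T and 25.4, 25.8, 31.6 and 34.1 CPM in C1MDT (log2 fold change 1.57, SE 0.21, edgeR FDR = 8.4e-11). The libraries did not overlap, and C1MV, at 9.16 ± 2.57 CPM (mean ± SD, n = 4), had its mean within the range of C1T. C1HDT, sorted for the highest mCherry, held 30.8 ± 3.75 CPM at day 4. Counts on this gene may come from the fusion or from what is left of the deleted gene, and which part each gave in C1T was not tested.

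Of the 15280 genes tested, 5103 differed between C1MDT and C1T (33.4%), 2576 higher (16.9%) and 2527 lower (16.5%). A log2 fold change over 2 was estimated for 268 of them and one under -2 for 219. Libraries of the groups did not overlap for 4624 tested genes (30.3%). Without the genes of chromosome 8, 4773 of the remaining 14431 differed. The first principal component of the day 4 libraries held 26.8% of the variance and set C1T, at -60.02 to -55.5, apart from all other groups, at 6.35 to 22.6. The second held 12.2% and set C1MDT and C1HDT, at 13.4 to 25.8, apart from C1MV and C1HV, at -32.4 to -14.2, with C1T between them at -1.09 to 9.07.

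**Figure D1:**
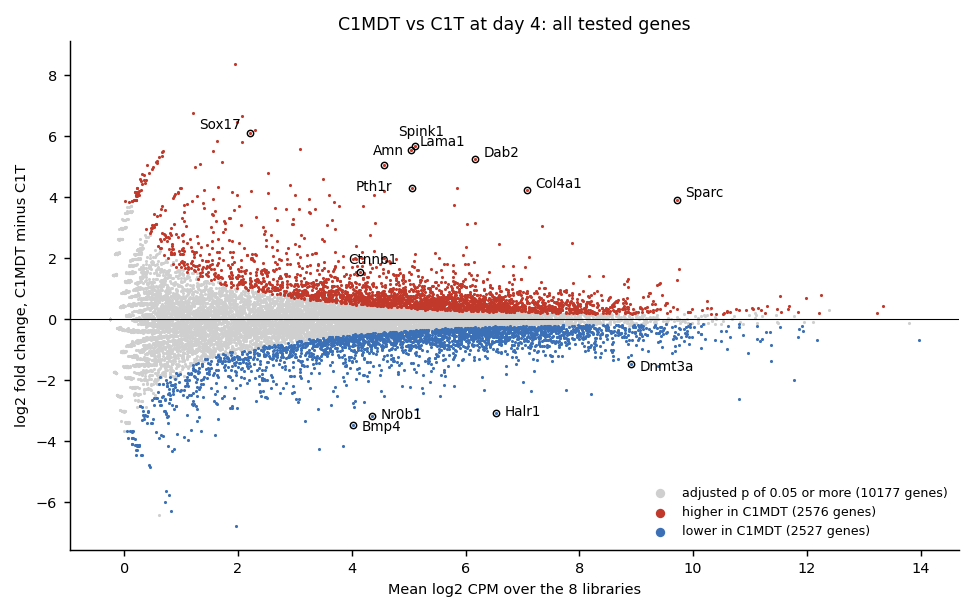
Each point is 1 of the 15280 tested genes, with its mean log2 CPM over the 8 libraries on the x axis and its log2 fold change (C1MDT minus C1T) on the y axis; red genes passed the threshold as higher (2576), blue as lower (2527) and grey did not. Sparc stands out for its log2 fold change of 3.90 at a high level, and Spink1, Lama1, Dab2 and Amn lie above 5 on the y axis.

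Among genes whose log2 CPM averaged 4 or more, the 8 with the largest rise were Spink1, Lama1, Dab2, Amn, Pth1r, Col4a2, Col4a1 and Srgn, with log2 fold changes from 5.70 down to 4.22. Spink1 encodes a secreted trypsin inhibitor and Srgn the core protein of a proteoglycan of secretory granules. Spink1 was counted at 5.76, 2.50, 5.24 and 4.57 CPM in C1T and 201, 252, 252 and 222 CPM in C1MDT, and its lowest C1MDT library lay far above its highest C1T library. The 8 with the largest decrease were Bmp4, Nr0b1, Halr1, Acot2, Capn3, Supt7l, Ttn and Lrrc2, with log2 fold changes from -3.45 to -2.67. Halr1, a long non-coding RNA transcribed next to the Hoxa cluster, was counted at 294, 286, 212 and 275 CPM in C1T and 30.6, 30.97, 23.7 and 42.7 CPM in C1MDT (log2 fold change -3.06, SE 0.14, edgeR FDR = 8.0e-23). Acot2, a mitochondrial thioesterase of acyl-CoA, was at 90.2, 96.2, 82.5 and 114 CPM in C1T and 10.96, 15.8, 10.3 and 12.4 CPM in C1MDT, and Supt7l, a subunit of the STAGA transcription complex, at 41.8, 40.4, 39.1 and 40.5 CPM in C1T and 6.34, 9.59, 5.58 and 2.75 CPM in C1MDT. In each of these 3 genes the C1MDT libraries lay below every C1T library, with no overlap.

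A gene can belong to more than one of the lists that follow, and the percents given for a list are the shares of its tested members that were higher and lower, to be read beside 16.9% and 16.5% over all tested genes. Of 27 tested endoderm transcription factors, 8 were higher and 1 lower, or 29.6% and 3.70%, with a median log2 fold change of 0.054 beside -0.0062 over all tested genes. With genes at the floor in 1 group set to their bound, and those at the floor in both to 0, the medians were 0 and 0. The rises were few and large. Sox17, an HMG-box factor of primitive and definitive endoderm (ENSMUSG00000025902, chromosome 1 from 4490931 to 4497354), was at the floor in C1T, where 3 of 4 libraries had no read. Its levels were 0.960, 0, 0 and 0 CPM in C1T and 20.2, 17.3, 23.5 and 20.6 CPM in C1MDT, at least 13.9-fold higher (edgeR FDR = 2.7e-23). Gata6, a zinc finger factor of primitive endoderm (ENSMUSG00000005836, chromosome 18 from 11052064 to 11085635), was counted at 2.88, 4.58, 2.38 and 1.96 CPM in C1T and 38.1, 44.2, 49.1 and 47.1 CPM in C1MDT (log2 fold change 3.85, SE 0.24, edgeR FDR = 1.6e-31). For Gata4, its relative in the same cells, the levels were 0.960, 4.58, 3.34 and 0 CPM in C1T and 25.4, 26.9, 24.01 and 21.7 CPM in C1MDT (log2 fold change 3.29, SE 0.30, edgeR FDR = 2.1e-18). All 4 C1MDT libraries of each gene lay above all C1T libraries. Foxa2, a forkhead factor of endoderm, node and axial mesoderm, was at 2.88, 2.08, 2.38 and 0.653 CPM in C1T and 30.6, 36.1, 31.6 and 33.7 CPM in C1MDT (log2 fold change 3.95, SE 0.29, edgeR FDR = 4.0e-26). Sox7, a relative of Sox17 found in parietal endoderm, was counted at 3.46, 2.58, 1.96 and 4.47 CPM in C1MDT against C1T libraries at the floor, at least 2.13-fold higher (edgeR FDR = 4.8e-05). Eomes, a T-box factor of definitive endoderm and trophoblast, overlapped between the groups, with 22.6, 19.6, 17.2 and 15.7 CPM in C1T and 24.8, 13.6, 18.1 and 21.7 CPM in C1MDT (edgeR FDR = 0.956). Mixl1 and Gsc, which the study places with mesoderm, and Cxcr4, which it places with endoderm, were at the floor in C1T. They had at most 4 counts in any C1MDT library, so no fold is given for them. Where 1 CPM was asked of every library compared, factors at the floor in C1T were not tested and 2 of the list were higher.

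Dab2, a clathrin adaptor of uptake in visceral endoderm, was counted at 12, 11.7, 14.8 and 6.53 CPM in C1T and 414, 523, 437 and 418 CPM in C1MDT (log2 fold change 5.27, SE 0.21, edgeR FDR = 3.1e-17), and Amn, the subunit that anchors the receptor cubilin in the membrane, at 3.36, 2.92, 4.77 and 3.92 CPM in C1T and 126, 125, 139.9 and 106 CPM in C1MDT (log2 fold change 5.05, SE 0.21, edgeR FDR = 4.5e-37). The C1MDT libraries of both genes were close to each other and far from the C1T libraries. Cited1, a transcriptional co-regulator, was at 0, 0.833, 2.86 and 0 CPM in C1T and 51.9, 57.9, 48.9 and 39.2 CPM in C1MDT (log2 fold change 5.57, SE 0.31, edgeR FDR = 6.1e-37). Emb, which encodes the cell surface glycoprotein embigin, differed by less, with 76.3, 62.05, 80.1 and 73.1 CPM in C1T and 183, 181, 182 and 183 CPM in C1MDT (log2 fold change 1.32, SE 0.097, edgeR FDR = 9.6e-26). Cited1 was near the floor in every C1T library, while Emb was well counted in both groups.

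As a whole, the list of visceral endoderm effectors was split. Of 41 tested members 18 were higher and 15 lower, or 43.9% and 36.6%, and 10 were higher where 1 CPM was asked of every library compared. Their median log2 fold change was 0.28 (0.086 with genes at the floor set to their bound). Among the lower ones were Alb, Apoa1, Ttr and Trf, which adult liver also makes. Of the 15 members counted as liver genes 1 was higher and 13 lower, with a median log2 fold change of -0.71. The other 26 had 17 higher and 2 lower, with a median of 1.73 (1.63 with genes at the floor set to their bound). This division was chosen after the values were seen. For comparison, a list of 35 liver genes, chosen after the values were seen and including Mup3, Cyp2e1 and Cps1, which serve as markers of mature hepatocytes, was counted in all 32 libraries. In C1MDT 34 of the 35 were lower than in C1T and 0 higher, and their log2 fold changes lay close together, from -0.92 to -0.54, with a median of -0.72. Summed over the list, the level was 4329 to 7724 CPM in C1T, 2766 to 3780 in C1MDT, 4288 to 5288 in C1MV and 4105 to 5467 in the pluripotent knockout C1. Alb, the major plasma protein, stood at 871 ± 247 CPM in C1T and 526 ± 83.2 in C1MDT, and Mup3 at 137 ± 49.4 and 79.8 ± 12.9 (mean ± SD, n = 4). The ratio of Apoa1 to Alb stayed between 0.728 and 0.939 over the 32 libraries. Where this liver RNA came from was not tested.

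**Figure D2:**
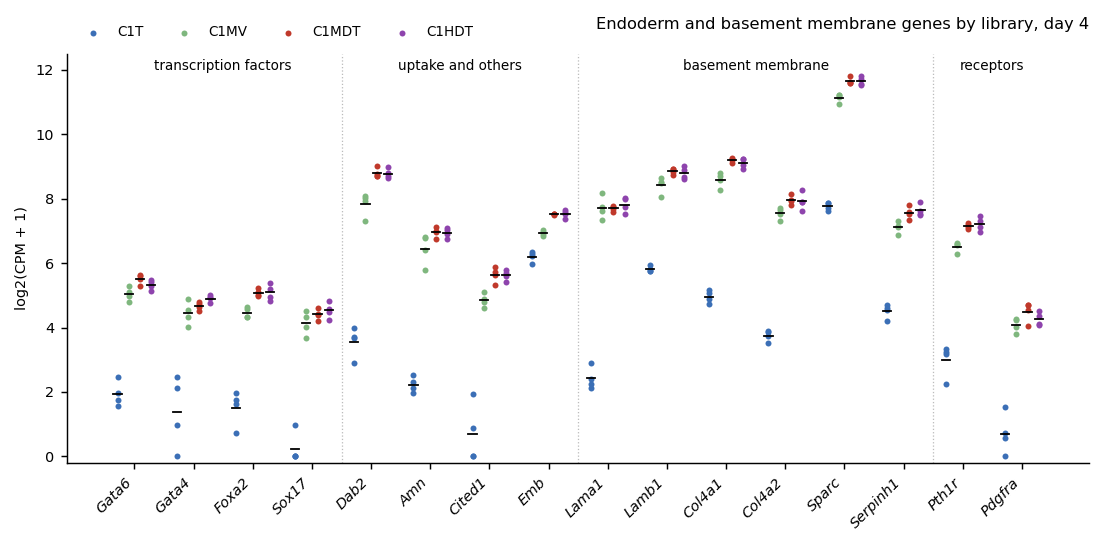
For 16 endoderm, basement membrane and receptor genes, each point is the log2(CPM + 1) of 1 library and each bar the mean of 4, for the day 4 groups C1T (blue), C1MV (green), C1MDT (red) and C1HDT (purple). The C1MDT libraries lie above all C1T libraries for every gene drawn, and the libraries of C1HDT are drawn beside them.

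The basement membrane showed the broadest rise of any list. Of 25 tested genes of parietal endoderm and basement membrane 19 were higher and 1 lower, or 76% and 4.00% (0 lower with 1 CPM asked of every library compared), and their median log2 fold change was 1.75 (1.68 with genes at the floor set to their bound). Together they took 728 to 807 CPM in C1T and 5498 to 6133 CPM in C1MDT, where Sparc alone gave 3114 to 3572 CPM. At day 0 they took 2380.5 to 2638.4 CPM in C1 and 1781.5 to 1914 CPM in C1M. Sparc, a secreted glycoprotein that binds collagen (ENSMUSG00000018593, chromosome 11 from 55394500 to 55423183), was counted at 195, 209, 235 and 234 CPM in C1T and 3114, 3116, 3572 and 3195 CPM in C1MDT (log2 fold change 3.90, SE 0.076, edgeR FDR = 4.7e-91), the smallest FDR of the comparison. Laminin-111, the main laminin of the early embryo, consists of chains encoded by Lama1, Lamb1 and Lamc1. Lama1 (ENSMUSG00000032796, chromosome 17 from 67697259 to 67822647) stood at 3.36, 3.75, 4.29 and 6.53 CPM in C1T and 217, 215, 204 and 194 CPM in C1MDT (log2 fold change 5.57, SE 0.21, edgeR FDR = 3.8e-24), and Lamb1 at 53.3, 52.9, 55.8 and 60.1 CPM in C1T and 455, 486, 486 and 427 CPM in C1MDT (log2 fold change 3.07, SE 0.098, edgeR FDR = 2.9e-54). Both rose in every C1MDT library beyond the range of C1T. Serpinh1, the chaperone that collagen chains need to fold, was at 17.3, 23.3, 25.3 and 22.2 CPM in C1T and 160.4, 184, 223 and 189.9 CPM in C1MDT (log2 fold change 3.11, SE 0.13, edgeR FDR = 2.8e-44). Outside the list, Htra1, a secreted protease, was counted at 0.480, 2.08, 3.34 and 1.96 CPM in C1T and 43.3, 55.3, 51.4 and 43.7 CPM in C1MDT, with no overlap.

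Col4a1 and Col4a2 encode the chains of the main collagen IV and lie head to head on chromosome 8, where they share a promoter. Col4a1 (ENSMUSG00000031502, chromosome 8 from 11198423 to 11312826) was at 28.8, 34.98, 32.4 and 25.5 CPM in C1T and 556, 611, 597 and 588 CPM in C1MDT (log2 fold change 4.25, SE 0.12, edgeR FDR = 4.2e-37). Col4a2 (ENSMUSG00000031503, chromosome 8 from 11312805 to 11449287) was at 13.4, 13.7, 10.5 and 12.4 CPM in C1T and 246, 281, 221 and 240.5 CPM in C1MDT (log2 fold change 4.29, SE 0.13, edgeR FDR = 4.0e-63). Neither gene overlapped between the groups, and their log2 fold changes differed by less than either SE. The RefSeq start sites of the pair (GRCm38.p6) lie 21 bases apart, Col4a1 starting at 11312826 on the minus strand and Col4a2 at 11312805 on the plus strand. The promoter window of Col4a2, from 250 bases before to 50 after its start, is printed because these genes moved together, with the 78 bases that also belong to the window of Col4a1 in capitals (chr8:11312555-11312854, plus strand).
Col4a2: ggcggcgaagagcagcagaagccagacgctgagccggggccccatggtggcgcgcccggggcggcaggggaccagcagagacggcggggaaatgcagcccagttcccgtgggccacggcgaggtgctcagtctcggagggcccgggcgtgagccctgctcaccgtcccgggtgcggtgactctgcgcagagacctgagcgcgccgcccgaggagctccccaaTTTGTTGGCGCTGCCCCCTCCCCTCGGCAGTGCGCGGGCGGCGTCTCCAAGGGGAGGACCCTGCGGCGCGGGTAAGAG
Chromosome 8 genes had a median log2 fold change of 0.13 in this comparison, beside 4.25 for Col4a1.

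Pth1r, the receptor of parathyroid hormone and its related peptide, which is known from parietal endoderm, was counted at 9.12, 3.75, 8.11 and 8.49 CPM in C1T and 139.6, 152, 145 and 132 CPM in C1MDT (log2 fold change 4.30, SE 0.17, edgeR FDR = 3.9e-44). Pdgfra, a receptor marking primitive endoderm, was at 0.480, 0, 1.91 and 0.653 CPM in C1T and 22.5, 25.1, 24.9 and 15.5 CPM in C1MDT (log2 fold change 4.80, SE 0.40, edgeR FDR = 1.7e-21). Pdgfra was near the floor in C1T and Pth1r was counted at a low level, and neither gene overlapped between the groups. Ihh, a hedgehog ligand of visceral endoderm, was counted at 11.5, 7.37, 6.70 and 7.23 CPM in C1MDT and was at the floor in C1T, at least 5.60-fold higher (edgeR FDR = 2.0e-11). The ligand Fgf10 was at least 7.10-fold and the receptor Fgfr3 at least 8.31-fold higher than C1T libraries at the floor. Fgf3, a ligand of visceral and parietal endoderm, was at 3.84, 8.33, 6.20 and 8.49 CPM in C1T and 20.2, 21.01, 29.04 and 27.9 CPM in C1MDT (log2 fold change 1.90, SE 0.23, edgeR FDR = 2.9e-12). Over the whole list of FGF and ERK response, 6 of 40 tested genes were higher and 10 lower, or 15% and 25% beside 16.9% and 16.5% over all genes (6 lower without C1T replicate 1 or 2, and 5 lower without C1T replicate 3). In the hedgehog pathway Hhip, a decoy receptor, was at 2.88, 4.16, 1.91 and 5.22 CPM in C1T against the floor in C1MDT, at least 3.02-fold lower (edgeR FDR = 5.5e-05), and the pathway's 14 tested genes had 2 higher and 4 lower, or 14.3% and 28.6% (0 higher with 1 CPM asked of every library compared, and 2 lower without C1T replicate 3 or C1MDT replicate 3).

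Genes that canonical Wnt signalling is known to switch on were not higher as a group in C1MDT. Of 23 tested feedback and direct targets 2 were higher and 7 lower, or 8.70% and 30.4% (1 higher without C1T replicate 3 or with 1 CPM asked of every library compared), with a median log2 fold change of -0.28 (-0.13 with genes at the floor set to their bound). Axin2, the most used readout of the pathway (ENSMUSG00000000142, chromosome 11 from 108920349 to 108950783), had few counts. Its levels were 3.84, 2.92, 2.86 and 3.92 CPM in C1T and 2.88, 1.48, 3.07 and 3.44 CPM in C1MDT, with overlapping libraries (edgeR FDR = 0.7). Lef1, a nuclear partner of β-catenin and itself a target, was lower, with 281, 263, 246 and 290.5 CPM in C1T and 133, 134, 131 and 130.1 CPM in C1MDT (log2 fold change -1.03, SE 0.097, edgeR FDR = 1.7e-17). The cyclins Ccnd2 and Ccnd1, which drive cells out of G1, were lower as well, at 183, 169, 170.2 and 149 CPM in C1T and 81.3, 70.8, 84.05 and 87.4 CPM in C1MDT for Ccnd2 and 209.7, 206, 279 and 193 CPM in C1T and 122, 142, 141 and 143 CPM in C1MDT for Ccnd1. All 3 were lower in every C1MDT library than in any C1T library. Dkk1, a secreted Wnt antagonist and feedback target, went the other way, at 3.46, 5.16, 8.66 and 5.51 CPM in C1MDT against C1T libraries at the floor, at least 3.88-fold higher (edgeR FDR = 3.6e-07).

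Among 36 tested Wnt ligands and receptors 6 were higher and 3 lower, or 16.7% and 8.33%, so that the share of higher members was near the 16.9% over all genes (3 higher with 1 CPM asked of every library compared). The secreted inhibitors Sfrp1 and Sfrp2 were both higher, Sfrp1 at 165, 182, 167 and 182 CPM in C1T and 483, 471, 467 and 454 CPM in C1MDT (log2 fold change 1.43, SE 0.074, edgeR FDR = 2.6e-39) and Sfrp2 by a log2 fold change of 0.89. Wls, the carrier that Wnt proteins need for secretion, was at 17.8, 15.8, 20.5 and 17.6 CPM in C1T and 41.5, 41.3, 44.1 and 39.2 CPM in C1MDT (log2 fold change 1.22, SE 0.16, edgeR FDR = 1.8e-10). The ligand gene Wnt8a was counted at 3.84, 5.83, 1.91 and 3.26 CPM in C1T and 0, 1.48, 0.558 and 0 CPM in C1MDT and was lower (edgeR FDR = 0.00161). No library of these genes overlapped with the other group. Of 26 destruction complex and TCF partner genes 6 were higher and 3 lower, or 23.1% and 11.5%. The co-activator Bcl9l was at 40.3, 40.8, 61.5 and 33.95 CPM in C1T and 120.0, 98.4, 133 and 96.01 CPM in C1MDT (log2 fold change 1.33, SE 0.12, edgeR FDR = 7.7e-19), whereas the co-repressor Tle4 was at 428, 401, 399 and 378 CPM in C1T and 201, 199, 243 and 207 CPM in C1MDT (log2 fold change -0.91, SE 0.084, edgeR FDR = 1.2e-17) and Usp34, a deubiquitinase of axin, had a log2 fold change of -0.82.

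Promoter windows were searched for the TCF/LEF core CTTTGAT on both strands. It was found in 74 of 2034 genes that were higher (3.64%), 55 of 1958 that were lower (2.81%) and 3.09% of all 11667 tested genes with a RefSeq window. Over all windows of the table the share was 3.73%. The related CTTTGTT was held by 4.08% of the higher, 4.75% of the lower and 4.86% of all tested genes with a window. Among the endoderm factors and Wnt antagonists described, a window of Foxa2 holds the first form and that of Dkk1 the second, and both are printed with the match in capitals. The match in Foxa2 (chr2:148045415-148045714, minus strand) is on the opposite strand of the gene, where the core reads as ATCAAAG, and begins 14 bases after the annotated start. The match in Dkk1 (chr19:30549447-30549746, minus strand) is on the gene's own strand, 98 bases before the start.
Foxa2: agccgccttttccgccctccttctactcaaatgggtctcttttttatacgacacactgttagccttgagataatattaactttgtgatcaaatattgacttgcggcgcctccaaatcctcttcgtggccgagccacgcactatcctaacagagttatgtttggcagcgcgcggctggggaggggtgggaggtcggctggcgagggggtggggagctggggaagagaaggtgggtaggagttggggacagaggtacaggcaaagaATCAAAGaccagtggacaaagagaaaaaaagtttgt
Dkk1: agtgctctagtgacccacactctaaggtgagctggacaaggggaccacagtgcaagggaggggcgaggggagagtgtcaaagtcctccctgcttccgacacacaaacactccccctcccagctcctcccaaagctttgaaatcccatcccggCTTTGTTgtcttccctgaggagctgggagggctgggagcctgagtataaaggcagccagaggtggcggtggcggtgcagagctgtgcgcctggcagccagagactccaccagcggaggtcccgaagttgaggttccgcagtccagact
A match of these letters is a description of the window and not a measured binding site.

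Pluripotency genes were lower more often than higher. Of 34 tested genes of naive pluripotency 7 were higher and 17 lower, or 20.6% and 50%, and of 21 genes of general pluripotency 1 was higher and 13 lower, or 4.76% and 61.9% (2 higher without the low count filter or in a fit of only these groups). Nr0b1, a nuclear receptor of the embryonic stem cell network (ENSMUSG00000025056, chromosome X from 86191764 to 86195947), was counted at 71.02, 73.7, 43.9 and 43.1 CPM in C1T and 7.498, 5.16, 6.42 and 7.23 CPM in C1MDT (log2 fold change -3.17, SE 0.32, edgeR FDR = 7.8e-09). Zfp57, the zinc finger protein that keeps methylation at imprinted loci, was at 80.6, 84.5, 74.8 and 83.6 CPM in C1T and 14.4, 18.4, 14.8 and 19.6 CPM in C1MDT (log2 fold change -2.25, SE 0.15, edgeR FDR = 3.8e-20). Both had no overlap, with all C1MDT libraries low. Esrrb, an orphan nuclear receptor, was at 84.5, 94.1, 71.04 and 79.6 CPM in C1T and 32.3, 39.1, 32.95 and 53.7 CPM in C1MDT (log2 fold change -1.05, SE 0.12, edgeR FDR = 2.8e-12), and Zfp42, also called Rex1, at 95.5, 84.1, 74.8 and 114 CPM in C1T and 31.1, 54.6, 46.1 and 54.4 CPM in C1MDT (log2 fold change -0.94, SE 0.18, edgeR FDR = 1.3e-04). Sox2, needed by both epiblast and neural cells, was at 473, 452, 406 and 441 CPM in C1T and 242, 278, 244 and 292 CPM in C1MDT (log2 fold change -0.74, SE 0.089, edgeR FDR = 4.5e-10), and Pou5f1 had a log2 fold change of -0.41 (edgeR FDR = 0.00522). These genes too were lower in every C1MDT library.

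Other naive genes did not follow. Klf4, at 41.8, 43.7, 36.7 and 37.9 CPM in C1T and 47.3, 33.5, 44.1 and 51.3 CPM in C1MDT, Nanog, at 92.1, 89.5, 82.5 and 95.97 CPM in C1T and 83.6, 71.2, 89.9 and 82.9 CPM in C1MDT, and Tbx3 overlapped between the groups, with edgeR FDRs of 0.539, 0.348 and 0.784. Klf5, Tcl1 and Fbxo15 were slightly higher in C1MDT, with log2 fold changes of 0.30, 0.53 and 0.28, and Fbxo15 did not pass without C1T replicate 3 (0.21). Stat3, the transducer of LIF signals, was at 34.5, 28.7, 30.04 and 30.03 CPM in C1T and 66.9, 74.1, 72.6 and 70.5 CPM in C1MDT (log2 fold change 1.21, SE 0.12, edgeR FDR = 7.4e-16). Among general pluripotency genes, Utf1 was at 329.7, 307, 286 and 274 CPM in C1T and 139.6, 132, 118 and 132 CPM in C1MDT (log2 fold change -1.21, SE 0.096, edgeR FDR = 2.1e-20), Tdgf1, the Nodal co-receptor also called Cripto, had a log2 fold change of -1.18 and L1td1, an RNA-binding protein, had -0.72. Sall4 and Lin28a did not pass the threshold (edgeR FDR = 0.246 and 0.251).

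**Figure D3:**
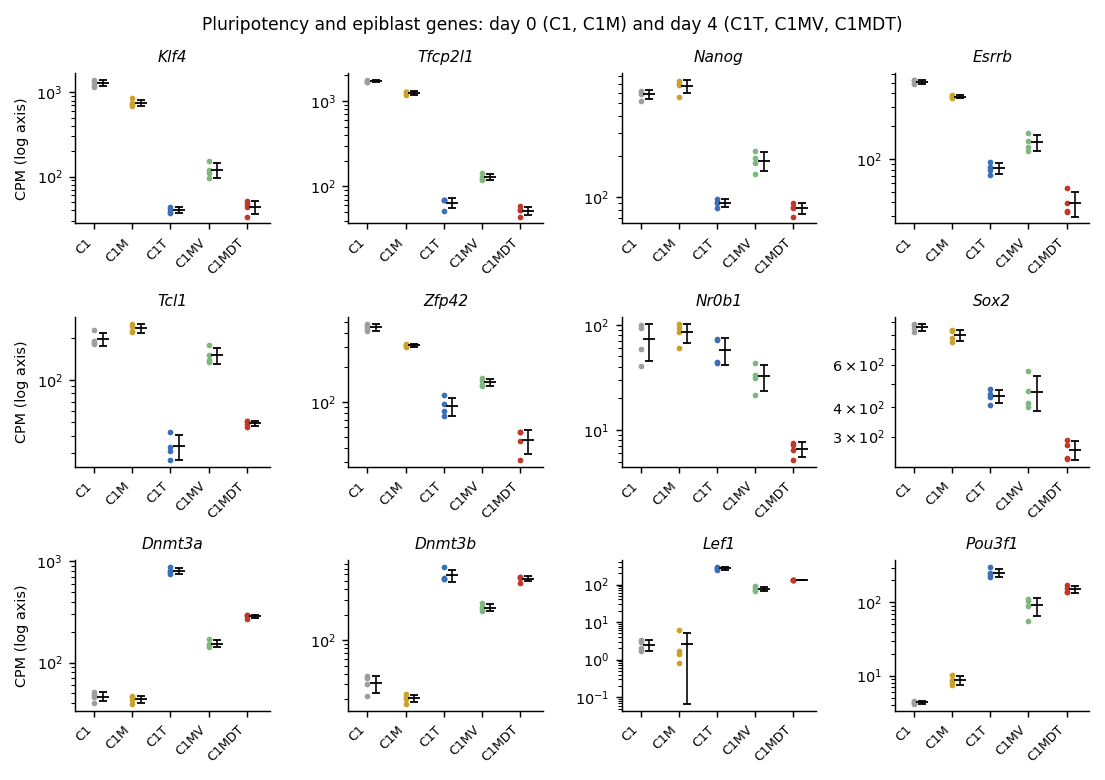
CPM on a log axis for 12 pluripotency and epiblast genes, with 1 point per library and the mean ± SD of 4 libraries beside it, in the day 0 groups C1 and C1M and the day 4 groups C1T, C1MV and C1MDT. Esrrb, Zfp42, Nr0b1 and Sox2 are lower in C1MDT than in C1T and C1MV, while Dnmt3a, Lef1 and Pou3f1 run in the order C1T, C1MDT, C1MV from high to low.

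Genes of the early post-implantation epiblast were also lower more often than higher. Of 22 tested 2 were higher and 12 lower, or 9.09% and 54.5%, with a median log2 fold change of -0.51 (-0.59 with genes at the floor set to their bound). Dnmt3a, a de novo DNA methyltransferase (ENSMUSG00000020661, chromosome 12 from 3806007 to 3914443), was counted at 793, 748, 876 and 777 CPM in C1T and 267, 294, 287 and 295 CPM in C1MDT (log2 fold change -1.48, SE 0.075, edgeR FDR = 2.6e-40). Pou3f1, also called Oct6, was at 256, 225, 304 and 236 CPM in C1T and 159, 140.5, 173 and 137 CPM in C1MDT (log2 fold change -0.74, SE 0.12, edgeR FDR = 2.0e-06), and both genes were lower without overlap. Dnmt3b, the other de novo enzyme, was at 525, 536, 728 and 534 CPM in C1T and 537, 549.7, 560.4 and 476 CPM in C1MDT and did not pass (edgeR FDR = 0.232). Fgf5, Otx2 and Sox3 overlapped as well, with FDRs of 0.204, 0.648 and 0.264 by edgeR. Sox11 was an exception in the other direction, at 252, 244, 326 and 256 CPM in C1T and 434, 400.0, 458 and 386 CPM in C1MDT (log2 fold change 0.64, SE 0.08, edgeR FDR = 1.3e-11). In the wider list of DNA methylation and demethylation, 0 of 20 tested genes were higher and 11 lower, or 0% and 55%. The dioxygenases Tet1 and Tet2, which oxidise methylcytosine, were among the lower ones, Tet1 at 699, 638, 656 and 573 CPM in C1T and 225, 259.9, 271 and 289 CPM in C1MDT (log2 fold change -1.29, SE 0.079, edgeR FDR = 8.0e-28) and Tet2 with a log2 fold change of -1.51.

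Neural and ectoderm genes, the usual product of this culture, moved in both directions, with 4 of 35 tested higher and 7 lower (11.4% and 20%, beside 16.9% and 16.5% over all genes). The higher members became 2 without C1T replicate 1 or 4 or C1MDT replicate 2 or 3 or without the low count filter. Sox1, the earliest neural plate marker, was higher, at 106, 94.5, 80.6 and 88.1 CPM in C1T and 170.2, 153, 174 and 164 CPM in C1MDT (log2 fold change 0.84, SE 0.098, edgeR FDR = 5.2e-13), as was En1, a midbrain and hindbrain homeobox gene, by a log2 fold change of 2.14. Pax6, Gbx2 and Stmn2 were lower, by log2 fold changes of -0.66, -1.36 and -0.61, and Pax6 did not pass without C1T replicate 3 (-0.49) or C1MDT replicate 3 (-0.53). Nes, the intermediate filament of neural progenitors, was at 9.12, 11.2, 10.97 and 7.18 CPM in C1T and 12.1, 20.6, 15.4 and 11.01 CPM in C1MDT and passed the threshold although its libraries overlapped (log2 fold change 0.60, SE 0.23, edgeR FDR = 0.0339). Nes did not pass without C1T replicate 1 or 4 or C1MDT replicate 2 or 3 (0.41 to 0.59), nor without the low count filter. Sox1 lies on chromosome 8 and exceeded the median difference of that chromosome.

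Mesoderm and primitive streak genes were lower more often than higher. Of 34 tested 3 were higher and 10 lower, or 8.82% and 29.4% (0 higher with 1 CPM asked of every library compared), with a median log2 fold change of -0.78 (-0.50 with genes at the floor set to their bound). Bmp4, a morphogen that induces mesoderm (ENSMUSG00000021835, chromosome 14 from 46383520 to 46390669), was counted at 52.3, 52.9, 45.3 and 48.3 CPM in C1T and 4.04, 4.42, 3.07 and 6.54 CPM in C1MDT (log2 fold change -3.45, SE 0.23, edgeR FDR = 2.0e-28). Tcf15, a bHLH factor of paraxial mesoderm that also marks primed epiblast, was at 336, 347, 286 and 308 CPM in C1T and 59.99, 73, 49.7 and 67.5 CPM in C1MDT (log2 fold change -2.36, SE 0.11, edgeR FDR = 5.3e-34), and Hoxb1, a homeobox gene of the posterior streak and hindbrain, at 95.97, 96.2, 68.2 and 82.9 CPM in C1T and 17.9, 15.5, 11.4 and 20.99 CPM in C1MDT (log2 fold change -2.41, SE 0.19, edgeR FDR = 1.8e-17). The C1MDT libraries of all 3 lay far below those of C1T. The receptor Pdgfra, counted in this list as well, rose with the endoderm genes. Kdr, Meox1 and Foxf1 were close to the floor in both groups and did not pass. Of 34 Hox genes tested 4 were higher and 6 lower, or 11.8% and 17.6%, beside 16.9% and 16.5% over all genes (2 higher with 1 CPM asked of every library compared), and Hoxa5 and Hoxa7 had log2 fold changes of -1.86 and -1.85.

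In the Nodal and Activin list 3 of 20 tested genes were higher and 8 lower, or 15% and 40%. Nodal, the ligand that patterns the epiblast, was at 60.5, 61.6, 52.9 and 59.4 CPM in C1T and 36.3, 32.8, 30.7 and 32 CPM in C1MDT (log2 fold change -0.84, SE 0.13, edgeR FDR = 4.5e-08). Its antagonists and targets Lefty1 and Lefty2 were lower, with log2 fold changes of -0.49 and -0.86, and Inhbb, a subunit of activin B, was at 13.4, 22.5, 12.9 and 19.6 CPM in C1T and 2.31, 2.58, 5.86 and 1.38 CPM in C1MDT. Smad3, the intracellular transducer, was higher (log2 fold change 1.16, SE 0.19, edgeR FDR = 7.0e-08). For BMP signalling, 4 of 25 tested genes were higher and 5 lower, or 16% and 20% beside 16.9% and 16.5% over all genes (3 lower without C1T replicate 2 or C1MDT replicate 2 or without the low count filter). Of its members, Bmp4 and the receptor Bmpr1a (-0.85 on the log2 scale) were lower and the target genes Id1 and Id2 higher, Id1 at 7.68, 5.00, 4.29 and 7.18 CPM in C1T and 13.8, 20.6, 20.4 and 16.5 CPM in C1MDT (log2 fold change 1.60, SE 0.27, edgeR FDR = 4.4e-07) and Id2 at 38.4, 33.7, 41.95 and 44.4 CPM in C1T and 83.6, 76.3, 89.4 and 77.4 CPM in C1MDT (log2 fold change 1.06, SE 0.12, edgeR FDR = 1.3e-13). Retinoid genes had 4 higher and 12 lower of 26, or 15.4% and 46.2% (2 higher with 1 CPM asked of every library compared). The binding protein Crabp1 was counted at 12.96, 13.7, 14.8 and 18.3 CPM in C1T and 218, 189.9, 210.5 and 171 CPM in C1MDT (log2 fold change 3.74, SE 0.20, edgeR FDR = 4.3e-15), while the receptor Rarg had a log2 fold change of -0.84.

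Genes of adhesion were higher more often than lower. Of 31 tested cadherin, catenin and junction genes 12 were higher and 3 lower, or 38.7% and 9.68% (1 lower without C1T replicate 3). Dsp, which links desmosomes to keratin filaments, was at 14.4, 12.1, 10.01 and 15.7 CPM in C1T and 47.3, 40.5, 53.6 and 46.1 CPM in C1MDT (log2 fold change 1.87, SE 0.16, edgeR FDR = 2.8e-21), and the desmosomal cadherin Dsg2 at 42.7, 35.8, 28.1 and 41.1 CPM in C1T and 122, 147, 129 and 137 CPM in C1MDT (log2 fold change 1.87, SE 0.11, edgeR FDR = 3.0e-34). Krt8, a keratin of simple epithelia, was at 2.40, 3.33, 1.91 and 5.22 CPM in C1T and 19.6, 20.6, 18.1 and 21.3 CPM in C1MDT (log2 fold change 2.67, SE 0.30, edgeR FDR = 5.5e-14), and its partner Krt18 had a log2 fold change of 1.51. None of these genes overlapped between the groups. The cadherin Cdh6 was counted at 6.34, 9.59, 11.7 and 13.4 CPM in C1MDT against C1T at the floor, at least 7.00-fold higher (edgeR FDR = 6.4e-13). Genes of Hippo signalling and its effector YAP had 8 higher and 2 lower of 19, or 42.1% and 10.5% (1 lower without C1T replicate 1 or 2 or C1MDT replicate 2, 3 or 4 or with library size only), among them Amotl2 (0.95), Ajuba (0.59) and Myof (2.14, all on the log2 scale). Notch genes had 6 higher and 2 lower of 20, or 30% and 10% (3 higher with 1 CPM asked of every library compared, and 1 lower without C1MDT replicate 3 or 4 or with 1 CPM asked of every library compared), with Hes1 at 27.8, 26.6, 30.04 and 26.8 CPM in C1T and 53.1, 51.6, 46.1 and 43.01 CPM in C1MDT (log2 fold change 0.78, SE 0.13, edgeR FDR = 4.1e-07). Of 22 trophoblast genes 7 were higher and 4 lower, or 31.8% and 18.2% (2 lower without C1T replicate 3 or C1MDT replicate 3 or 4 or with 1 CPM asked of every library compared), and Elf3, Tead4 and the keratins just named were among the higher ones. Sema6a, a semaphorin of axon guidance, was at 47.99, 34.1, 45.3 and 30.7 CPM in C1T and 2.88, 1.84, 2.23 and 1.38 CPM in C1MDT (log2 fold change -4.26, SE 0.31, edgeR FDR = 1.3e-25), while the ephrin Efna3 was higher by a log2 fold change of 2.20.

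Imprinted genes split, with 11 of 43 tested higher and 13 lower, or 25.6% and 30.2%. H19, a non-coding RNA of the maternal allele that is abundant in endoderm and mesoderm, was at 4.799, 6.25, 8.58 and 7.18 CPM in C1T and 64.6, 65.2, 57.2 and 53.7 CPM in C1MDT (log2 fold change 3.16, SE 0.26, edgeR FDR = 7.9e-14), whereas Cdkn1c, a cell cycle inhibitor, was at 48.95, 46.6, 32.9 and 36.6 CPM in C1T and 19.03, 16.96, 13.4 and 16.2 CPM in C1MDT (log2 fold change -1.36, SE 0.18, edgeR FDR = 1.0e-10). Of 48 germ cell and meiosis genes 8 were higher and 11 lower, or 16.7% and 22.9%, beside 16.9% and 16.5% over all genes. Taf7l, a germ cell paralogue of a TFIID subunit, was at 82.5, 74.96, 52.4 and 96.6 CPM in C1T and 16.7, 25.8, 20.9 and 28.2 CPM in C1MDT (log2 fold change -1.70, SE 0.17, edgeR FDR = 5.5e-13), and Sycp1, of the synaptonemal complex, at 33.1, 30.8, 23.8 and 21.5 CPM in C1T and 7.498, 7.00, 4.47 and 8.60 CPM in C1MDT (log2 fold change -2.03, SE 0.21, edgeR FDR = 2.7e-15). Rhox13 was higher, by a log2 fold change of 1.34. Of 14 tested genes of the 2-cell-like state 2 were higher and 0 lower, or 14.3% and 0%, beside 16.9% and 16.5% over all genes. The 2 were Usp17lc and Gm8300, with log2 fold changes of 1.03 and 0.96. Both belong to multigene families whose reads cannot be placed with certainty. Gm8300 did not pass without C1T replicate 3 or 4 or C1MDT replicate 4 (0.77 to 0.88), without the low count filter or in a fit of only these groups.

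Metabolic genes differed by smaller folds but in large numbers. Of 34 genes of cholesterol and fatty acid synthesis 18 were higher and 4 lower, or 52.9% and 11.8%. Cyp51, a sterol demethylase, was at 335, 300.2, 299 and 369 CPM in C1T and 457, 485, 460.5 and 461 CPM in C1MDT (log2 fold change 0.52, SE 0.074, edgeR FDR = 1.6e-09), and Pmvk, of the mevalonate pathway, had a log2 fold change of 0.54. Elovl6, which elongates fatty acids, went the other way, at 313, 276, 277 and 304 CPM in C1T and 98.1, 121, 118 and 116 CPM in C1MDT (log2 fold change -1.36, SE 0.085, edgeR FDR = 3.4e-31). Glycolysis and pyruvate genes had 15 higher and 6 lower of 31, or 48.4% and 19.4% (3 lower without C1MDT replicate 3). The glucose transporter Slc2a3 was at 304, 319, 259 and 292 CPM in C1T and 794, 699, 678 and 664 CPM in C1MDT (log2 fold change 1.27, SE 0.073, edgeR FDR = 7.0e-35), and Aldoc, an aldolase, had a log2 fold change of 1.45. Of 39 genes of the integrated stress response 20 were higher and 8 lower, or 51.3% and 20.5%. Its factor Atf4 was lower, at 3021, 2980, 2930 and 2936 CPM in C1T and 1980, 1800, 1714 and 1806 CPM in C1MDT (log2 fold change -0.70, SE 0.063, edgeR FDR = 3.1e-19), while the target Asns, which makes asparagine, was higher, with a log2 fold change of 0.61.

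Of 12 tested mitochondrially encoded genes 7 were lower and 0 higher. Their summed level was 16271 to 18660 CPM in C1T and 5433 to 8231 CPM in C1MDT. mt-Nd4, a subunit of complex I, was at 6842, 6682, 7335 and 7209 CPM in C1T and 1901, 2128, 1246 and 1781 CPM in C1MDT (log2 fold change -1.99, SE 0.15, edgeR FDR = 4.4e-11), and mt-Co1, of complex IV, at 399, 411, 438 and 454 CPM in C1T and 302, 324, 257 and 308 CPM in C1MDT (log2 fold change -0.52, SE 0.071, edgeR FDR = 4.2e-10). Nuclear genes of the respiratory chain were split, with 25 higher and 18 lower of 72, or 34.7% and 25%: Atp5g1 and Ndufb3 were lower (-1.19 and -0.99), Cox4i1 and Ndufa7 higher (0.55 and 0.58, all log2 fold changes). Reads that fell on no annotated gene were 14.4 to 14.8% of the uniquely placed reads in C1T and 10.8 to 11.2% in C1MDT, without overlap. Whether RNA quality had a part in either value was not tested. Cytosolic ribosomal proteins had 26 higher and 16 lower of 80, or 32.5% and 20%, and mitochondrial ribosomal proteins 11 and 20 of 74, or 14.9% and 27.03% (13 lower without C1T replicate 1 or 3 or C1MDT replicate 4 or with library size only, and 12 lower without C1T replicate 2).

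Proliferation genes were lower more often than higher. Of 40 S phase genes 5 were higher and 15 lower, or 12.5% and 37.5% (3 higher without C1T replicate 1 or 2 or C1MDT replicate 2 or 3 or with DESeq2), of 44 G2 and M phase genes 8 were higher and 13 lower, or 18.2% and 29.5%, and of 18 G1 cyclins and inhibitors 2 were higher and 6 lower, or 11.1% and 33.3%. Ccne2, the cyclin of the G1 to S transition, was at 60.9, 62.5, 74.4 and 67.9 CPM in C1T and 28.8, 31.3, 25.97 and 25.8 CPM in C1MDT (log2 fold change -1.25, SE 0.14, edgeR FDR = 1.1e-14), and Ube2c, which helps degrade mitotic cyclins, had a log2 fold change of -0.65. Ccnb2, a mitotic cyclin, was higher (0.66). Of 24 p53 targets 3 were higher and 8 lower, or 12.5% and 33.3%, with Mdm2 at -0.35 and Phlda3 at 0.39 on the log2 scale. Interferon response genes had 5 higher and 2 lower of 21, or 23.8% and 9.52% (3 higher without C1T replicate 3, and 1 lower without C1T replicate 2), and Bst2, which tethers virus particles, was at 29.3, 21.6, 26.2 and 24.8 CPM in C1T and 82.5, 75.6, 57.8 and 88.1 CPM in C1MDT (log2 fold change 1.56, SE 0.16, edgeR FDR = 1.5e-14). The 13 tested genes of endothelium and blood summed to 21.1 to 29.6 CPM in C1T and 18.4 to 29.2 in C1MDT. Of them 2 were higher and 0 lower, or 15.4% and 0% (1 higher without C1T replicate 1, 2 or 4 or C1MDT replicate 1 or 3 or with DESeq2, 0 higher without C1T replicate 3 or with 1 CPM asked of every library compared, and 1 lower without C1MDT replicate 3). Of 7 muscle and heart genes 1 was higher, Des (0.75, which did not pass without C1T replicate 1, at 0.68), and 1 lower, Ttn, at 46.1, 44.6, 51.01 and 41.8 CPM in C1T and 5.19, 5.16, 7.82 and 8.95 CPM in C1MDT; the heart myosin Myh6 overlapped (edgeR FDR = 0.212). Mesenchymal genes had 6 higher and 2 lower of 23, or 26.1% and 8.70% (3 higher with 1 CPM asked of every library compared, and 1 lower without C1MDT replicate 2 or 4 or with DESeq2), with Mmp2, a gelatinase, at 9.60, 9.99, 14.8 and 13.7 CPM in C1T and 24.8, 30.97, 26.5 and 26.5 CPM in C1MDT.

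**Figure D4:**
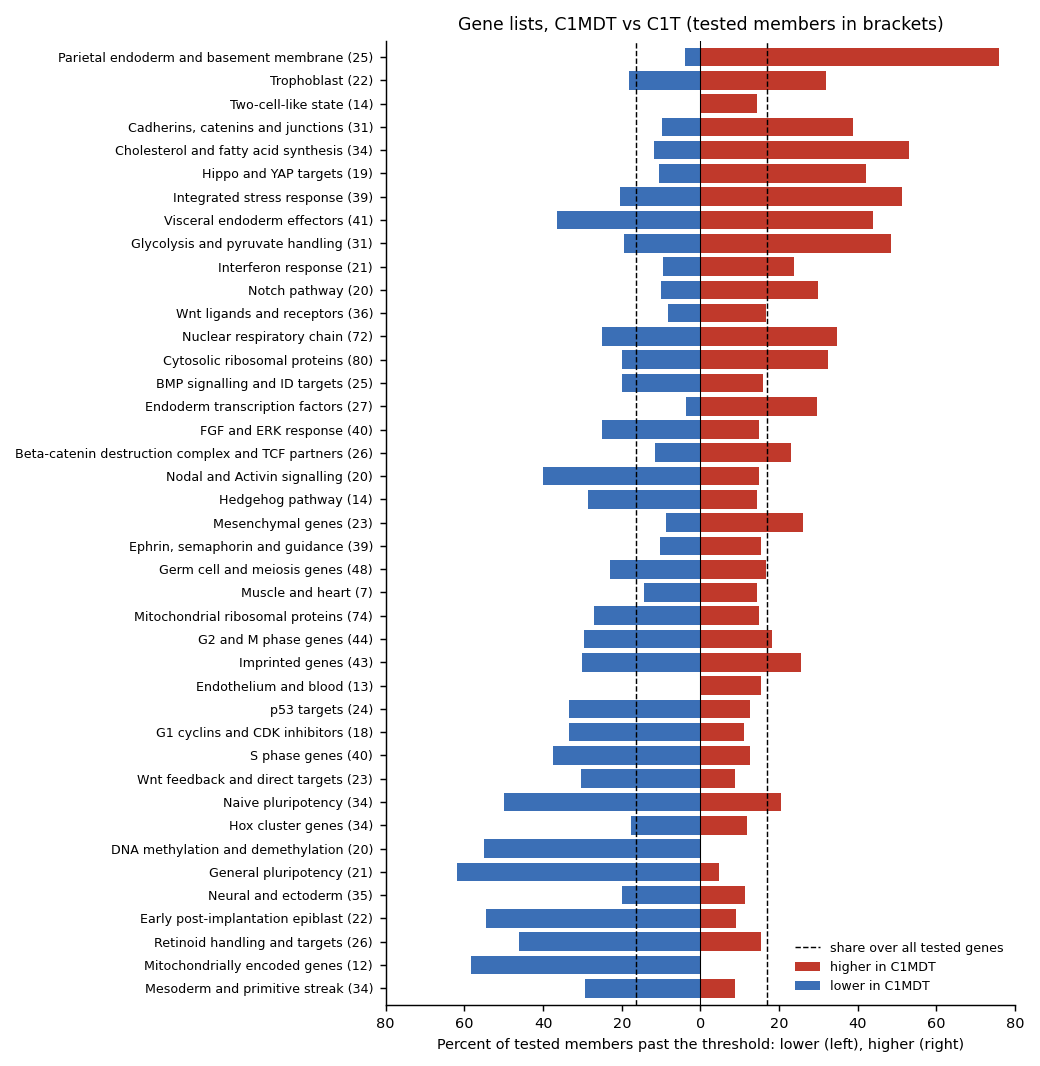
For each of 41 gene lists, bars give the percent of tested members (number in brackets) that passed the threshold as higher (red, right) or lower (blue, left) in C1MDT than in C1T, in order of the median log2 fold change, and dashed lines mark the shares over all tested genes (16.9% higher, 16.5% lower). The basement membrane list reaches furthest to the right, and general pluripotency and mitochondrially encoded genes furthest to the left.

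Chromosome 8 stood apart from the other chromosomes. Of its 849 tested genes 218 were higher (25.7%) and 102 lower (12.01%), and their median log2 fold change was 0.13. The other autosomes and X had medians from -0.082 to 0.044. With genes of at least 10 CPM it was 0.17, and chromosome 15 came next with 0.072. Taken per library, as the median deviation of chromosome 8 genes from their mean in C1T less that of all genes, it was 0.145, 0.160, 0.162 and 0.156 in C1MDT and -0.00714, 0.00206, 0.00678 and -0.00370 in C1T, where values near 0 follow from the choice of reference. C1MV had 0.163, 0.136, 0.152 and 0.119, and between C1MDT and C1MV the median log2 fold change of the chromosome was 0.00045. At day 0, C1M minus C1 had a median of 0.12 on chromosome 8, in libraries that the day 4 comparison does not use. Copy number was not measured, and its part in these values was not tested. Rpl13, a ribosomal protein (0.79), and Cox4i1 (0.55) are on this chromosome, and their log2 fold changes were above its median.

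**Figure D5:**
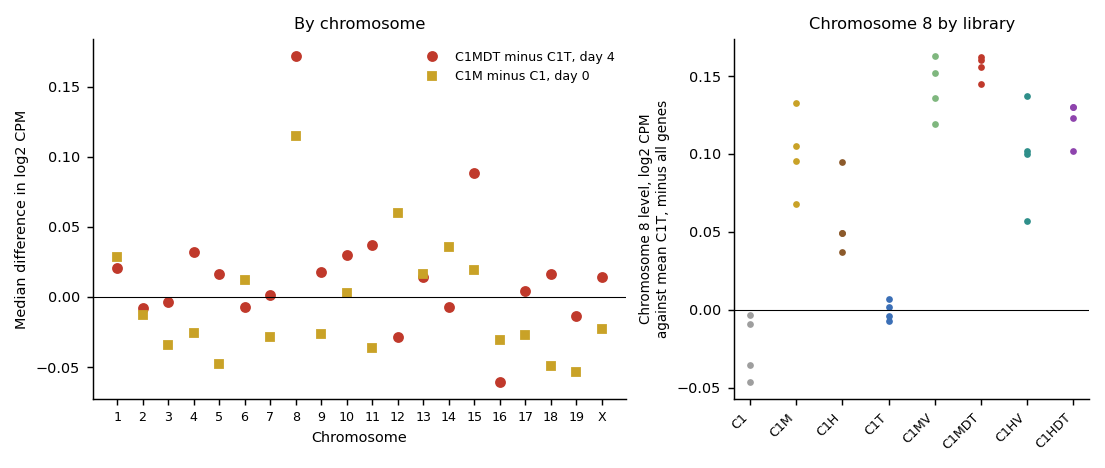
Left, the median difference in log2 CPM over genes of at least 10 CPM for each chromosome, for C1MDT minus C1T at day 4 (circles) and C1M minus C1 at day 0 (squares); right, the chromosome 8 level of each library against the mean of C1T, less that of all genes, by group. Chromosome 8 is highest in both comparisons on the left, and on the right all libraries of C1 and C1T lie below all libraries of the groups given dox.

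Whether the inducers were needed during the 4 days was asked by comparing C1MDT with C1MV, which came from the same sorted fraction. Between them 1924 genes differed (12.6%), 1015 higher (6.64%) and 909 lower (5.95%) in C1MDT. The most uniform group was cholesterol and fatty acid synthesis, in which 30 of 34 genes were higher and 0 lower in C1MDT, with a median of 0.83. Pmvk was at 296, 297, 265 and 286 CPM in C1MDT and 122, 130.3, 129 and 128 CPM in C1MV (log2 fold change 1.16, SE 0.083, edgeR FDR = 1.2e-25). Naive pluripotency was lower in C1MDT for 21 of 34 genes and higher for 1. Tcl1, a co-activator of Akt, was at 50.8, 48.3, 46.4 and 50.6 CPM in C1MDT and 178, 138, 150.5 and 133 CPM in C1MV (log2 fold change -1.63, SE 0.11, edgeR FDR = 5.6e-27), and Nanog at 83.6, 71.2, 89.9 and 82.9 and 194, 178, 148 and 219 CPM (log2 fold change -1.15, SE 0.092, edgeR FDR = 1.7e-20). Both were lower in C1MDT without overlap. Post-implantation genes were higher in C1MDT for 9 of 22 and lower for 1, such as Dnmt3b at 537, 549.7, 560.4 and 476 CPM against 219, 245, 234 and 271 CPM (log2 fold change 1.14, SE 0.086, edgeR FDR = 7.4e-19). Among genes whose log2 CPM averaged 4 or more, and without overlap, the 3 largest rises were those of Ctnnb1 itself, the kinase Pim2 (1.47) and Vrtn (1.28), and the 3 largest decreases those of the adhesion molecule Jam2 (-2.16), Esrrb (-1.85) and the secreted phosphoprotein Spp1 (-1.72, all log2 fold changes).

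Many of the endoderm genes above were also high in C1MV. Sox17 was at 11.7, 21.7, 15.3 and 19.3 CPM there and Lama1 at 162, 196, 212 and 288 CPM, overlapping with C1MDT (edgeR FDR = 0.432 and 0.921). Dab2 was at 156, 273, 259.5 and 243 CPM in C1MV and higher in C1MDT (log2 fold change 0.95, SE 0.14, edgeR FDR = 1.8e-05), as was Sparc, at 1979, 2380, 2289 and 2406 CPM (log2 fold change 0.52, SE 0.065, edgeR FDR = 7.4e-11). Of the 25 basement membrane genes 5 were higher in C1MDT than in C1MV and 1 lower. Of the 27 endoderm factors 2 were higher and 1 lower, and the 2 higher ones were Gata6 (0.49) and Foxa2 (0.65), named because of their small number. Of the 35 liver genes described above 18 were lower in C1MDT than in C1MV, and the median log2 fold change over the 35 was -0.56.

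Against C1HDT, sorted for the highest mCherry and given the same inducers, edgeR called 0 of 15280 genes (0.0%), and DESeq2 called 0. At an unadjusted p under 0.05 there were 814 genes by edgeR and 659 by DESeq2, and the smallest FDR was 0.0597. Ctnnb1 differed by -0.051 on the log2 scale (SE 0.16, edgeR FDR = 0.992). Sox17, Lama1 and Dab2 differed by -0.12, -0.13 and 0.022 on the log2 scale, with SEs of 0.20, 0.11 and 0.13. A p that misses the threshold does not show that the groups were alike.

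The difference between C1MDT and C1T at day 4 was tested against that between C1M and C1 at day 0. The groups share no libraries. The test finds differences that changed between the days, and not those already present at day 0. The difference changed for 3733 genes (24.4%), 1810 with a larger value at day 4 (11.8%) and 1923 with a smaller one (12.6%). Sox17 and Sparc were of the first kind. Sox17 was at 3.36, 1.13, 2.08 and 2.88 CPM in C1 and 5.94, 7.45, 3.59 and 2.06 CPM in C1M (edgeR FDR of the change = 5.4e-08). Since C1T was at the floor for this gene, no size of the change is given. Sparc was at 1410, 1227, 1208 and 1472 CPM in C1 and 817, 829, 856 and 920.0 CPM in C1M, so that the means had the opposite order at day 0, where the difference was not tested on its own (change 4.54, edgeR FDR = 1.2e-83). From C1 to C1T the mean of Sparc went from 1330 to 218 CPM, and from C1M to C1MDT from 856 to 3249 CPM. Htra1 had a like pattern, at 64.6 and 58.6 CPM in C1 and C1M and 1.96 and 48.4 CPM in C1T and C1MDT. Basement membrane genes had 17 of 25 with a larger difference at day 4 and 1 with a smaller one, and glycolysis genes 20 of 31 and 0. Germ cell genes had 3 with a larger and 23 with a smaller one. Sycp1, for example, was at 2.52, 5.66, 4.67 and 5.27 CPM in C1 and 30.1, 27.7, 26.4 and 29.3 CPM in C1M at day 0, with the higher mean in C1M, and was lower in C1MDT at day 4 (change -4.69, edgeR FDR = 1.9e-27). For Taf7l the means at day 0 were 13.5 and 56.4 CPM in C1 and C1M (change -3.78, edgeR FDR = 1.3e-18).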

How the data were processed

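RNA of 32 mouse embryonic stem cell cultures was measured by QuantSeq 3′ sequencing. Per the labels and the study's methods, the authors used bbduk for trimming, STAR for alignment (mm10) and htseq-count for counting on genes; the deposited values are these whole-number counts, unnormalised, 1 table per library. The strand setting of the counting is not given in the sources used here, so reads of overlapping and antisense genes may be mixed, and reads of near-identical genes cannot be placed with certainty. Symbols and positions came from GENCODE vM21 (31011 of 31053 identifiers matched), and promoter windows from RefSeq on GRCm38.p6.

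The counts of all 32 libraries (8 groups of 4) were fitted together with edgeR 4.0.16 in R 4.3.3 (TMM factors, robust quasi-likelihood test), on the genes that reached 1 CPM in 4 or more libraries. Rows that name no gene stayed out; reads on no feature were 10.1 to 23.1% of uniquely placed reads. FDR is the Benjamini-Hochberg adjusted p over these 15280 genes, with a threshold of 0.05. The 3 further contrasts used the same fit. SE is the absolute log2 fold change divided by the square root of the quasi-likelihood F statistic, and is not a separate estimate. On simulated counts 200 genes were changed, all with a mean of at least 10 CPM. For C1MDT against C1T, 97.9% of those changed 2-fold and 100% of those changed 4-fold were recovered, and 6.16% of calls were false. Recovery of genes below 10 CPM was not measured. Mean ± SD is over 4 libraries. DESeq2 1.42.0, other size factors, filters, fits and libraries left out were tried as alternatives. The study's own batch check treated the replicate numbers as batches. The labels do not tie a number to a shared culture or day, and same-numbered libraries did not deviate together, so they were not taken as pairs, and a block for the number was an alternative.

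The comparison, the 41 gene lists and the tests were chosen with earlier results of these data known. Named are Ctnnb1 and Axin2, the 8 largest rises and decreases among called, non-overlapping genes whose log2 CPM averaged 4 or more, up to 4 members of each list by adjusted p, list members that the study names, and the 3 largest rises and decreases of each further contrast. The liver genes, a count of visceral endoderm effectors without liver genes and the removal of chromosome 8 were chosen after the values were seen.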

Additional observations from a re-analysis of the deposited data

Results flagged for a closer look

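In 292 groups of 4 libraries, C1T and C1MDT for each of the 146 genes named, a library far from the other 3 of its group was found 21 times (Dixon's test, 95% level), where chance flags about 1 in 20 groups. The library stood above the others for Jam2 with 10.3 CPM in C1MDT replicate 3 (others 6.54 to 6.92), L1td1 with 556 CPM in C1MDT replicate 3 (others 521 to 527), Sox11 with 326 CPM in C1T replicate 3 (others 244 to 256), Gbx2 with 32.5 CPM in C1T replicate 2 (others 23.5 to 23.99) and Usp17lc with 7.83 CPM in C1T replicate 4 (others 2.86 to 3.33). It also stood above them for Gm8300 with 7.23 CPM in C1MDT replicate 4 (others 4.42 to 4.75), Tet2 with 21.9 CPM in C1MDT replicate 1 (others 12.5 to 13.96), Ihh with 11.5 CPM in C1MDT replicate 1 (others 6.70 to 7.37), Cyp51 with 485 CPM in C1MDT replicate 2 (others 457 to 461) and Dnmt3b with 728 CPM in C1T replicate 3 (others 525 to 536). It stood below the others for Ccnd1 with 122 CPM in C1MDT replicate 1 (others 141 to 143), Fbxo15 with 105 CPM in C1T replicate 3 (others 135 to 136) and Lefty2 with 32.4 CPM in C1MDT replicate 2 (others 39.9 to 40.95). For genes near the floor, where the other 3 libraries of the group had no read, the library was that of Cdh6 with 0.833 CPM in C1T replicate 2, Sox17 with 0.960 CPM in C1T replicate 1, Ihh with 0.653 CPM in C1T replicate 4, Mixl1 with 0.369 CPM in C1MDT replicate 2, Gsc with 0.477 CPM in C1T replicate 3, Foxf1 with 0.653 CPM in C1T replicate 4, Sox7 with 0.653 CPM in C1T replicate 4 and Dkk1 with 1.44 CPM in C1T replicate 1. Of these genes, Fbxo15 and Gm8300 lost their call without the library named. The difference between C1MDT and C1T at day 4 departed from that between C1M and C1 at day 0 for 3733 genes by edgeR's test of the interaction.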

How the results depend on the processing

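The number of genes that differed between C1MDT and C1T stayed within 1.5 times of 5103 under every alternative run, from 4382 without C1MDT replicate 3 to 5244 in a fit of only the groups compared. It was 4804 with DESeq2 and 5146 with library size only, of which 2871 were higher. Against C1MV the counts were 1403 to 1987, and for the change from day 0 to day 4 they were 3306 to 3856. Against C1HDT the count was 0 under all alternatives except a fit of only these groups, which called 1 gene, Eef1a2 (log2 fold change 1.90, edgeR FDR = 0.0274, chosen after its value was seen). Fits with a block for replicate number gave counts of 5045 against C1T, 1858 against C1MV, 0 against C1HDT and 3653 for the change between days. The libraries were not taken as pairs, since the correlations of same-numbered deviations between C1MDT and C1T ran from -0.017 to 0.014.

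Of 2170 values of the 146 named genes under alternatives, 2146 kept their direction and their side of the threshold, 14 lost the call, 2 gained it and 8 changed sign. The sign changed for genes without a call when 1 library was left out, where the range was -0.073 to 0.20 for Tbx3, -0.16 to 0.0095 for Dnmt3b, -0.00037 to 0.10 for Otx2 and -0.080 to 0.15 for Eomes. Calls were lost by Fbxo15 without C1T replicate 3 (0.21), by Des without C1T replicate 1 (0.68) and by Pax6 without C1T replicate 3 (-0.49) or C1MDT replicate 3 (-0.53). Nes lost it without C1T replicate 1 or 4 or C1MDT replicate 2 or 3 (0.41 to 0.59) and without the low count filter, and Gm8300 without C1T replicate 3 or 4 or C1MDT replicate 4 (0.77 to 0.88), without the filter and in the fit of only these groups. Lin28a gained a call in the latter fits (0.19 and 0.19).

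Of 1232 counts of list members under alternatives, 73 moved by over 1.5 times. Where 1 CPM was asked of every library compared, genes near the floor in C1T were not tested, and the higher members became 2 endoderm factors and 10 visceral endoderm effectors, while mesoderm had 0. Mitochondrial ribosomal proteins had 13 lower members with library size only and 12 or 13 without C1T replicate 1, 2 or 3 or C1MDT replicate 4. Mixl1, Gsc and Cxcr4 had at most 4 counts in any library of C1T and C1MDT, which allowed no fold at this depth.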
